A study of Mus musculus with 8 samples.

Results

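The Zfp genes of the mouse encode proteins that are mostly built from C2H2 zinc fingers, small folds held by a zinc ion that read DNA. The genes described here carry a symbol of Zfp followed by a number, without Zfp36, Zfp36l1 and Zfp36l2, which belong to another family, and had a mean of at least 1 FPKM over 6 libraries of intestinal crypts. FPKM is the number of sequenced fragments per kilobase of gene and per total of sequenced fragments. The deposited crypt table named 383 such genes, of which 8 had no value and 109 had a mean under 1 FPKM, so that 266 genes remained among 10862 genes that passed the same minimum. The members were thus chosen by symbol and by their mean FPKM over these same libraries, so their levels are a description. The genes just inside the minimum were Zfp90 at a mean of 1.02 FPKM, Zfp296 at 1.03 FPKM and Zfp708 at 1.05 FPKM. Just outside were Zfp185 at 0.975 FPKM and Zfp446 and Zfp867 at 0.973 FPKM each.

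All crypts came from C57BL/6 mice labelled as 8 weeks old. The WT library has the genotype setdb1fl/fl, in which both copies of Setdb1 are floxed, and the 5 knockout libraries, named VEMD2, VEMD3, VEMD4, VEMD6 and VEMD8, have the genotype setdb1 iIEC-KO, with Setdb1 removed in the intestinal epithelium. Per the labels' protocols the recombinase is CreERT2 under the Villin promoter, which is active throughout the gut epithelium, and tamoxifen was given by gavage once at 800 mg/kg, also to WT. The labels give no meaning for VEMD, and its number is used here as a name only; how many mice each library holds is not given in the sources used here. Each group is 1 library, so no value carries an error, no difference was tested, and higher and lower describe these libraries alone. All 5 ratios share the WT library.

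A large share of zinc finger proteins carry a KRAB box at the N-terminus. This box binds TRIM28, a scaffold that brings in SETDB1, a methyltransferase that marks histone H3 at lysine 9 and so silences retroelements and imprinted loci. Genes of KRAB zinc fingers lie in clusters of near copies that grew by duplication, and such clusters are known to carry the same histone mark themselves.

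Setdb1 mRNA read 9.42 FPKM in WT, with 6.64, 7.03 and 5.49 FPKM in VEMD2 to VEMD4, 3.53 in VEMD6 and 4.95 in VEMD8. All 5 knockout libraries lay below WT, although the mRNA was still read in each, and the labels do not say which exons are floxed. The 5 general epithelial markers (Epcam, Krt8, Krt18, Cdh1 and Vil1) summed to 3450 to 4562 FPKM in all 6 libraries, and 5 stromal markers to at most 7.12 FPKM. Sums of cell type markers differed between libraries: 6 enterocyte markers summed to 5914 FPKM in WT, 1653 in VEMD3 and 11481 in VEMD6, where Lct was lower, at 16.66 FPKM beside 65.13 FPKM in WT, and Sis was at 164 FPKM beside 170 FPKM. The 5 Paneth cell markers summed to 11764 FPKM in WT and 1135 in VEMD6. The 5 goblet cell markers summed to 4228 FPKM in WT, 5123 in VEMD4 and 966 in VEMD6. The 5 stem cell markers summed to 637 FPKM in WT, 173 in VEMD4 and 183 in VEMD6. Olfm4 made up most of that sum, at 574 FPKM in WT, while Ascl2 and Axin2 were above WT in VEMD2 to VEMD4. The 5 proliferation markers summed to 378 FPKM in WT, 486 in VEMD2 and 222 in VEMD6. Of 5 leukocyte markers, Cd74, which epithelium can also express, was at 826 to 2319 FPKM and lowest in VEMD8, while Ptprc, Cd3e, Laptm5 and Cd79a were each at most at 6.48 FPKM, Laptm5 and Cd3e highest in VEMD4. The part of cell composition in the values below was not tested, and in bulk RNA fewer cells of a type and less RNA per cell cannot be told apart.

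The Zfp genes were expressed at low levels. Their median mean was 3.92 FPKM, against 13.1 FPKM over all 10862 genes, and 13 of the 266 had a mean over 20 FPKM. Zfp972 had the highest mean at 202 FPKM, carried by the knockouts, followed by Zfp207, a spindle and splicing factor, at 80.8 FPKM, Zfp706 at 53.8 FPKM, Zfp91 at 37.3 FPKM and Zfp488 at 34.9 FPKM. In translated GENCODE coding sequences, 259 of the 266 held at least 1 finger, with a median of 10, and 151 held a KRAB box by a match of at least 8 of 15 conserved letters. Genes with the box had a median of 12 fingers and a median mean of 3.26 FPKM, and the 115 without it 7 fingers and 5.20 FPKM. The box and the fingers were not part of the rule.

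The median ratios of the Zfp genes to WT had the same order over the libraries as those of all genes. Their median level in WT was 3.84 FPKM, with 4.42, 4.81 and 3.79 FPKM in VEMD2 to VEMD4, 2.59 FPKM in VEMD6 and 3.75 FPKM in VEMD8, so that VEMD6 was lowest. On the log2(FPKM + 1) scale, which understates changes of low genes, the median ratio to WT was 0.18, 0.20 and 0.04 in VEMD2 to VEMD4, -0.32 in VEMD6 and 0.01 in VEMD8. The same medians over all genes were 0.09, 0.12, 0.03, -0.23 and -0.06 in that order. Genes with and without a KRAB box had medians of -0.30 and -0.32 in VEMD6, beside -0.23 over all genes.

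Few members moved by 2-fold or more. In VEMD2, 9 of 266 (3.38%) were at least 2-fold higher than WT, beside 2.44% of all genes, and 0 were at least 2-fold lower, beside 2.39%. In VEMD3, 20 (7.52%) were higher, beside 6.00%, and 1 (0.376%) lower, beside 4.62%. In VEMD4, 13 (4.89%) were higher, beside 7.10%, and 2 (0.752%) lower, beside 5.04%. The shares of higher members thus lay near those of all genes, whereas the shares of lower members were smaller. VEMD6 had 6 members higher (2.26%, beside 5.04%) and 14 lower (5.26%, beside 8.15%), and VEMD8 had 11 higher (4.14%, beside 4.36%) and 3 lower (1.13%, beside 5.21%). Across libraries 23 members were higher in at least 1 library (8.65%, beside 12.2%), 14 were lower in at least 1 (5.26%, beside 13.4%), none was both, and 229 were neither. Of the 23, 10 lay under 1 FPKM in WT and so passed the minimum through the knockouts. Higher in all 5 libraries were 2 members (0.752%, beside 0.571%), and lower in all 5 were 0 (beside 0.626%); without VEMD2 these counts were 6 and 1, and without VEMD6 4 were higher. The pseudocount weighed on the counts: with 0.1 or 5 FPKM in place of 1 FPKM, 42 or 1 members were lower in VEMD6. After rescaling to the median gene 6 were, with a family median of -0.08. The shares of all genes at these settings were not computed. WT was the lowest of the 6 libraries for 35 members (13.2%, beside 17.0%) and the highest for 37 (13.9%, beside 20.8%).

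Since Zfp genes are low, the counts were also set beside the 4554 genes with a mean of 1 to 10 FPKM, a range that holds 225 of the members. In the order from VEMD2 to VEMD8, 8, 16, 10, 4 and 9 of the 225 were higher, beside 2.99%, 7.73%, 8.72%, 3.91% and 4.63% of those genes. Lower were 0, 1, 2, 13 and 3, beside 2.06%, 3.91%, 5.07%, 9.40% and 6.41%. The 2 members higher in all 5 lie in this range, beside 0.351%, and 0 were lower in all 5, beside 0.769%. As shares of 225 these are 3.56%, 7.11%, 4.44%, 1.78% and 4% higher and 0%, 0.444%, 0.889%, 5.78% and 1.33% lower.

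**Figure D1:**
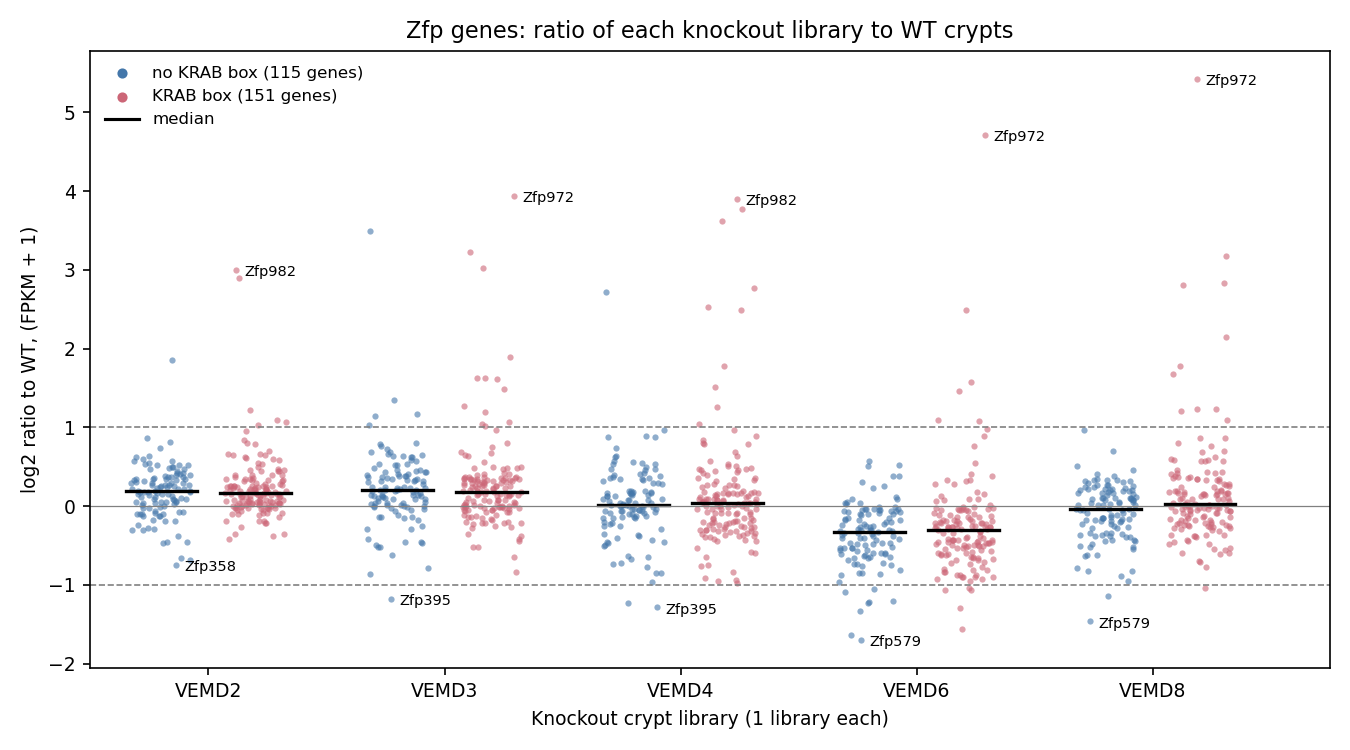
Log2 ratio to WT, after 1 FPKM was added to both values, of each Zfp gene in each knockout library; red points are the 151 genes with a KRAB box, blue points the 115 without, black bars the medians and dashed lines a 2-fold change. Most points lie between the dashed lines, Zfp972 reaches 5.43 in VEMD8, and 11 points of 3 genes listed at 0 in WT or in that library are not drawn.

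Of the 23 members that were higher in at least 1 library, 16 carried a KRAB box and 7 did not. With the box, 6, 13, 10, 6 and 11 of 151 were higher, counted from VEMD2 to VEMD8, which is 3.97%, 8.61%, 6.62%, 3.97% and 7.28%, beside 2.44%, 6.00%, 7.10%, 5.04% and 4.36% of all genes. Without it, 3, 7, 3, 0 and 0 of 115 were higher, so that the members higher in VEMD6 or VEMD8 had a box, at a share below that of all genes in VEMD6. Of the 14 lower members, 6 had the box and 8 did not. The difference between the classes was not tested. As a comparison, 46 Zbtb, Zscan and Zkscan genes, most of which join zinc fingers to a BTB or SCAN domain, were past the same minimum. This set was taken by name and not by domain. Before the minimum, Zkscan5, Zkscan6 and Zkscan16 held a KRAB box by the same match, and Zbtb8os held 0 fingers. Of the 46, 0 passed 2-fold in either direction in any library, beside 12.2% of all genes higher and 13.4% lower in at least 1.

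**Figure D2:**
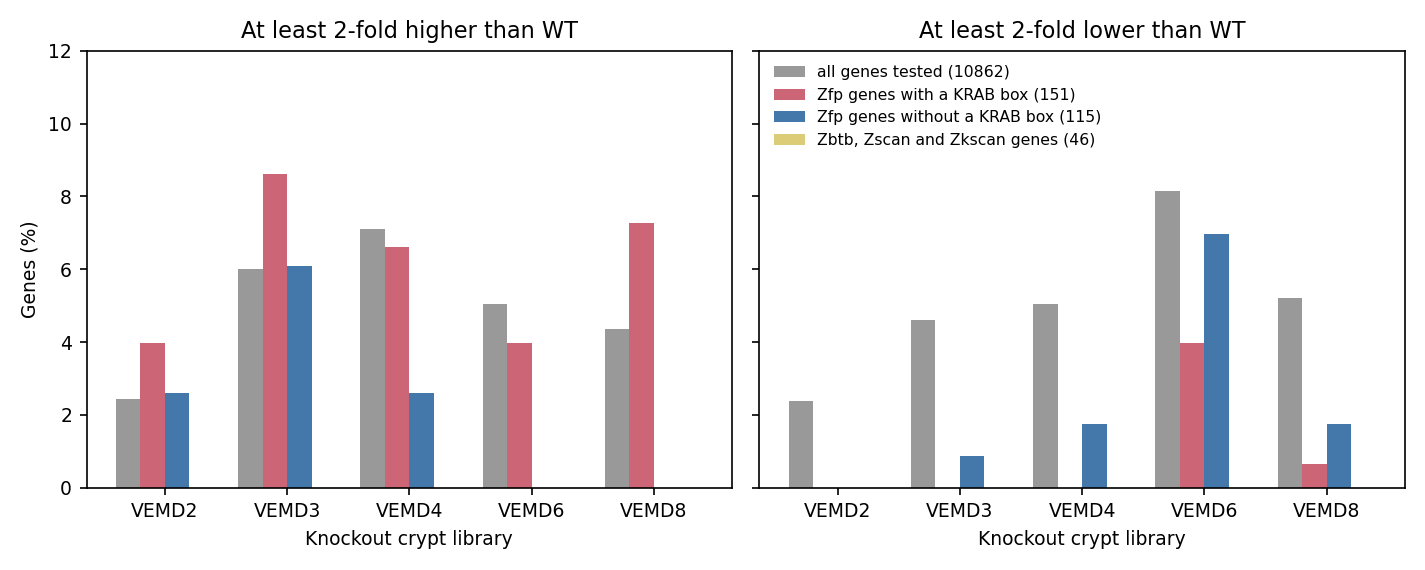
Share of genes (%) at least 2-fold higher (left) or lower (right) than WT in each knockout library; grey bars are all 10862 genes, red and blue bars Zfp genes with and without a KRAB box, and the Zbtb, Zscan and Zkscan genes have no bar because their share is 0. Blue bars are absent on the left in VEMD6 and VEMD8, and red and blue bars on the right stay below the grey ones.

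Both members that were higher in all 5 libraries lay on chromosome 4, with others that were higher in 4. Over the whole family, 135 of the 266 members, 111 of them with a KRAB box, fell in 19 clusters of at least 4 members with neighbouring starts at most 1 Mb apart. The cluster at chr4:145510759-147849126 (GRCm38) held 8 members, all with a KRAB box. Of these, 4 were higher, beside 12.2% of all genes higher in at least 1 library. They were Zfp982 and Zfp987 in all 5 libraries, and Zfp985 and Zfp990 in every library but VEMD6. Zfp982 read 0.19 FPKM in WT, with 8.52, 10.18 and 16.74 FPKM in VEMD2 to VEMD4, 1.55 in VEMD6 and 9.76 in VEMD8. Zfp990 read 0.04 FPKM in WT, with 6.74, 7.43 and 13.27 FPKM in VEMD2 to VEMD4, 0.10 in VEMD6 and 6.41 in VEMD8. Both were close to silent in WT, highest in VEMD4 and low again in VEMD6. The log2 ratios of Zfp982 were 3.00, 3.23, 3.90, 1.10 and 3.18, and those of Zfp990 2.90, 3.02, 3.78, 0.08 and 2.83.

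Zfp987 had 0.74 FPKM in WT and 2.64, 5.45, 3.96, 4.18 and 6.73 FPKM in the knockouts from VEMD2 to VEMD8. Zfp985 had 0.23 FPKM in WT and 1.63, 2.81, 3.21, 1.29 and 3.22 FPKM in the same order. For both, WT was the lowest library and VEMD8 the highest, in Zfp985 by 0.01 FPKM over VEMD4. Zfp987 is a near copy of other genes: 89.0% of its 50-base words occur in transcripts of other genes, most of them in Gm8935, so its reads cannot be assigned with certainty, while for Zfp982 the share was 11.9%, for Zfp985 15.9% and for Zfp990 29.1%.

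The other 4 members of the cluster were expressed in WT and did not pass 2-fold. The 4 higher members lay under 1 FPKM in WT and passed the minimum through the knockouts. A gene so low in WT could be a member only if it was higher in a knockout, so this contrast is partly set by the minimum. Zfp984 read 8.84 FPKM in WT, with 7.63, 8.67 and 4.50 FPKM in VEMD2 to VEMD4, 6.43 in VEMD6 and 8.49 in VEMD8. Zfp991, at 10.66 FPKM in WT, and Zfp992, at 4.82 FPKM, likewise had their lowest value in VEMD4, at 5.07 and 2.45 FPKM. In that library, where Zfp982 and Zfp990 were highest, the 3 genes had log2 ratios of -0.84, -0.94 and -0.75. Their reads are not cleanly assigned either: 54.5% of the words of Zfp984 are shared, most of them with Gm13212, 82.2% of those of Zfp991 and 43.0% of those of Zfp992. Zfp933 stayed between 1.91 and 3.10 FPKM. Of 7 further genes in the span, Gm13212 was at 3.13 FPKM in WT and 7.28, 9.57, 10.32, 3.06 and 6.64 FPKM in the knockouts, and Zfp534, below the minimum, was listed at 0 in WT and VEMD6 and at 1.28, 0.61 and 1.11 FPKM in VEMD2 to VEMD4 and 0.92 FPKM in VEMD8. Zfp980, Zfp600, Zfp981, Zfp979 and Rex2 stayed under 0.5 FPKM in all 6 libraries.

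The start sites of 3 members that were higher, and of 1 that was not, are shown to let their upstream sequences be compared. The 250 bases before the start, from RefSeq on GRCm38.p6 and written 5′ to 3′ on the strand of the gene, are given for Zfp987 (chr4:146097062-146097311, plus strand), Zfp982 (chr4:147492167-147492416, plus strand, the 1 of its 3 listed starts that is most like Zfp987), Zfp985 (chr4:147553027-147553276, plus strand) and Zfp984 (chr4:147809789-147810038, minus strand). Capitals mark the longest run that the first 3 have in common, or the first in order where runs tie. Another shared run of the same length lies nearer the start. It is not marked and was not searched in other promoters, and Zfp984 departs from it after its first bases.
Zfp987: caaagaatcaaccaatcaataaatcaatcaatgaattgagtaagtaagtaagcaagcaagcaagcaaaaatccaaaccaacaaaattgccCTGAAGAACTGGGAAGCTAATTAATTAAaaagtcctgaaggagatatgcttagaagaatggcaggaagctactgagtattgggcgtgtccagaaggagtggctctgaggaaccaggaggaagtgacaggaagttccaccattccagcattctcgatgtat
Zfp982: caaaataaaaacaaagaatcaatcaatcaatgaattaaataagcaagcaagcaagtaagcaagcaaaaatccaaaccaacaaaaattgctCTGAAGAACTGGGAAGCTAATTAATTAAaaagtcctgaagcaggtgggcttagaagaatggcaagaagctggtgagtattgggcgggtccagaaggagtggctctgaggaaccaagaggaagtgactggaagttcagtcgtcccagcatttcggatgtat
Zfp985: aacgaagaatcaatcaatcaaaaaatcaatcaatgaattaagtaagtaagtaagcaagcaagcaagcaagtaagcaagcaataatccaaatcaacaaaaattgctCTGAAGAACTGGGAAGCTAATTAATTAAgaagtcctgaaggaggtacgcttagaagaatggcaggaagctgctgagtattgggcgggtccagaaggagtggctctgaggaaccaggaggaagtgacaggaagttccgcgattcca
Zfp984: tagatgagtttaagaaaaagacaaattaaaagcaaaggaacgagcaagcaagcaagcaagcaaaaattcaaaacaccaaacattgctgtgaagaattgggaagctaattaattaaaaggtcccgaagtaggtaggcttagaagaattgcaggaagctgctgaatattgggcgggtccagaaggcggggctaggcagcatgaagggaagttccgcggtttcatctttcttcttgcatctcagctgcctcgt
Over the promoter of 300 bases, 250 before and 50 after the start, Zfp987, Zfp982 and Zfp985 were 88.5% to 90.2% identical in local alignments, and Zfp984 was 81.1% to 81.6% identical to them. The run CTGAAGAACTGGGAAGCTAATTAATTAA, of 28 bases, was found on either strand in 6 of 32851 promoters of this length (0.0183%), those of Zfp982, Zfp985, Zfp987, Zfp534, Zfp980 and Zfp988, and not in that of Zfp984. Only exact matches were counted, and the printed sequence of Zfp984 holds a stretch that differs from the run in few bases. The marked run is thus not absent from Zfp984 as a similar sequence. A match describes the sequence and is not a binding site. The run was defined from 3 genes picked because they were higher, so of the genes with values that hold it only Zfp534, given above, and Zfp980, at most at 0.41 FPKM, add to the description. In 1 pair, Gm13212 and Zfp984, promoter similarity and course did not go together. Reads of this pair may be shared, as 46.9% of the words of Zfp984 occur in Gm13212. The promoter of Gm13212, which was more than 2-fold higher in VEMD2 to VEMD4, was 94.8% identical to that of Zfp984, which was not, and 80.1% to 81.5% identical to those of Zfp987, Zfp982 and Zfp985. The promoters of Zfp600, Zfp979 and Rex2 were 85.5% to 92.8% identical to the 3 genes at levels under 0.5 FPKM. Zfp600 was listed at 0 in WT and VEMD6 and at 0.23 to 0.35 FPKM in the other 4 libraries, and Zfp979 at 0 in the same 2 and at 0.06 to 0.17 FPKM in the others, too low to be read as a course.

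The member with the largest values lies in another KRAB cluster. Zfp972 (chr2:177903064-177925650, GRCm38) read 11.19 FPKM in WT, with 22.62, 186.78 and 149.54 FPKM in VEMD2 to VEMD4, 319.99 in VEMD6 and 523.57 in VEMD8. WT was lowest, VEMD2 next and the other 4 libraries far higher, with log2 ratios of 0.95, 3.95, 3.63, 4.72 and 5.43. In GENCODE its longest coding sequence encodes 139 residues with a KRAB box and 0 fingers, so it is a Zfp gene by symbol whose annotated protein lacks the fingers. Its neighbours did not share this course. The span of the cluster, chr2:175470025-178035859, held 19 genes with values, 6 of them members. Zfp972 was the only 1 that was 2-fold higher in any library, beside 12.2% of all genes. Of the 19, 6 were 2-fold lower in at least 1, beside 13.4%. All genes here are those past the minimum, which was not asked of the 19. The nearest member, Zfp971, had 9.98 FPKM in WT and 12.52, 9.70, 9.73, 5.59 and 15.36 FPKM in the knockouts. Reads may be shared in this cluster: 56.5% of the 50-base words of Zfp972 occur in other transcripts, most often in Gm14392 (26.8%), and Zfp966 and Zfp967 had values within 0.01 FPKM of each other in all 5 knockouts.

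Zfp972 also stands apart in its promoter, which is shown with that of Zfp971 for this reason. The sequences are the 250 bases before the start of Zfp972 (chr2:177925651-177925900, minus strand) and of Zfp971 (chr2:178023034-178023283, plus strand), with the longest run in common in capitals.
Zfp972: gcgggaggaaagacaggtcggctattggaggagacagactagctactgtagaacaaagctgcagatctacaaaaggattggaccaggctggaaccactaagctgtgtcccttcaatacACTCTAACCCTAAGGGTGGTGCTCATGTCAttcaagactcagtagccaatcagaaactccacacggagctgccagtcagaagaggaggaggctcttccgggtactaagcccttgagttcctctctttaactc
Zfp971: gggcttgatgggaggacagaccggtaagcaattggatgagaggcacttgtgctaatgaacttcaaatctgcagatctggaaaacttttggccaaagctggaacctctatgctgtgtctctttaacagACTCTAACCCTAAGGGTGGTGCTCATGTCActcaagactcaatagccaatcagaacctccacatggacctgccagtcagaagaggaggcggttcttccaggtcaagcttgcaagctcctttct
Among 18 genes of the cluster with a RefSeq promoter, that of Zfp972 was 78.7% to 83.3% identical to the other 17, and those 17 were 93.3% to 100% identical to each other. The run ACTCTAACCCTAAGGGTGGTGCTCATGTCA, of 30 bases, was found on either strand in 33 of 32851 promoters (0.10%), from 29 genes. Of the 22 of these with values, 1 was 2-fold higher in any library, Zfp972 itself, beside 12.2% of all genes past the minimum. Another 6 were 2-fold lower in at least 1, beside 13.4%.

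**Figure D3:**
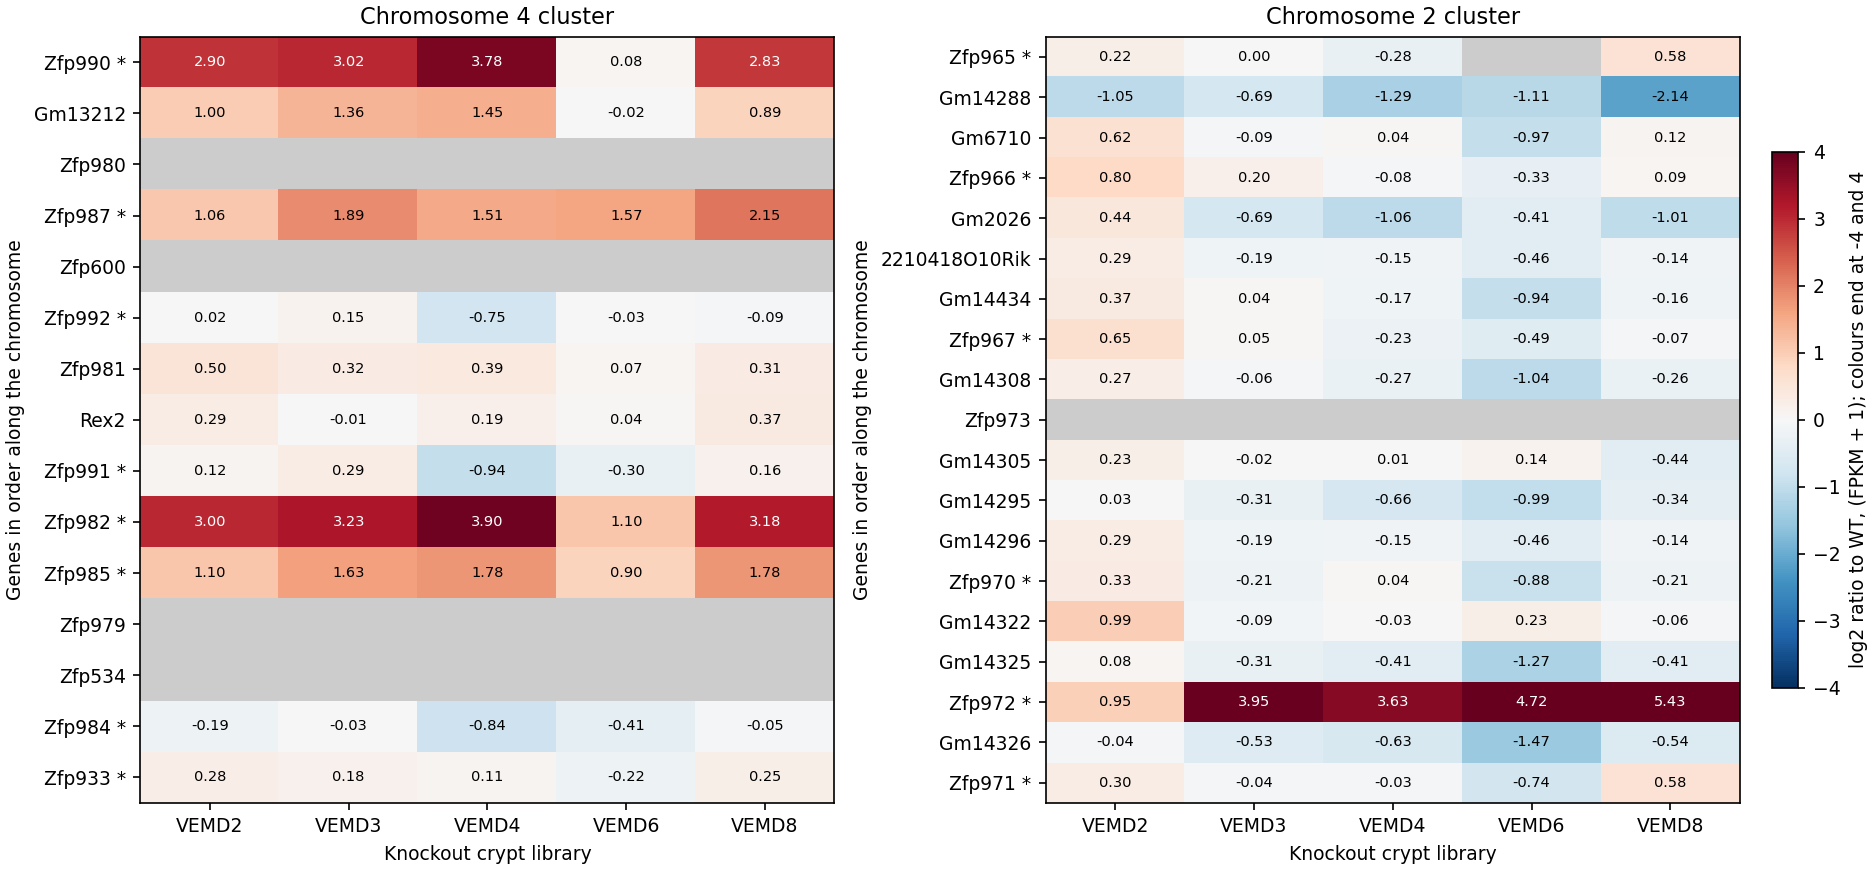
Log2 ratio to WT (FPKM + 1) in each knockout library, printed in each cell, of all genes with values in the clusters on chromosome 4 (left) and chromosome 2 (right), in their order along the chromosome; an asterisk marks the members of the Zfp list, and grey cells have WT or the library listed at 0. Red rows on the left are Zfp990, Gm13212, Zfp987, Zfp982 and Zfp985, and on the right Zfp972 alone, at 5.43 in VEMD8.

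Over all members with a RefSeq promoter (224 of 266), the median GC content was 55.0% with 14.5 CpG pairs per 300 bases. Over all 27025 genes with a RefSeq promoter, whatever their FPKM, the medians were 52.7% and 7. The members had to pass the minimum of FPKM and those genes did not, so the sets are not alike. Members with a KRAB box had 52.0% and 10, members without it 61.8% and 21.5, and the members matched in the chromosome 4 cluster, 5 of 8, had 44.0% and 6. These are descriptions of the sequence and were set against no other measure.

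Outside these clusters, Zfp791, Zfp37 and Zfp951 were higher in VEMD3, VEMD4, VEMD6 and VEMD8, as Zfp972 was, and all have a KRAB box. Zfp791 read 3.01 FPKM in WT, with 5.07, 11.28 and 26.27 FPKM in VEMD2 to VEMD4, 21.53 in VEMD6 and 11.81 in VEMD8. Zfp951 was at 1.78 FPKM in WT and 2.37, 4.65, 14.67, 6.68 and 18.42 FPKM in the knockouts. WT was lowest and VEMD2 second lowest for both. None of the 3 has a near copy, with at most 1.63% of words shared. Zfp27, Zfp433 and Zfp52, also KRAB genes, passed 2-fold in VEMD8 only. Zfp433 was at 5.11 FPKM in WT and 12.03 FPKM in VEMD8, but 84.3% of its words are shared, mostly with Gm32687.

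Several members are known silencers of retroelements or imprinted genes. Of 10 genes listed for such roles, 7 were members. The list was drawn up with earlier results of these data known, so its counts are a description. Of the 7, 1, 4, 2, 1 and 1 were at least 2-fold higher, counted from VEMD2 to VEMD8, and 0 lower. The shares of all genes that were higher were 2.44%, 6.00%, 7.10%, 5.04% and 4.36%. The median ratios of these 7 were 0.54, 1.05, 0.80, 0.16 and 0.59, beside 0.09, 0.12, 0.03, -0.23 and -0.06 over all genes. Zfp809, which silences endogenous retroviruses with a proline primer site, read 13.74 FPKM in WT, with 29.16, 40.35 and 34.26 FPKM in VEMD2 to VEMD4, 15.45 in VEMD6 and 21.12 in VEMD8. Zfp445, a keeper of imprints, was at 17.88 FPKM in WT and 26.52, 38.09, 31.76, 22.04 and 32.00 FPKM in the knockouts. Both were lowest in WT and highest in VEMD3. Zfp568, which represses a placental transcript of Igf2, was likewise lowest in WT, at 2.11 FPKM, and highest in VEMD3, at 5.50 FPKM. Zfp37 read 1.14 FPKM in WT, with 2.29, 5.64 and 11.34 FPKM in VEMD2 to VEMD4, 3.54 in VEMD6 and 4.02 in VEMD8. The other 3 members, Zfp932, Zfp202 and Zfp120, did not pass 2-fold with 1 FPKM added, though 2 came near it in VEMD6. Zfp932, a repressor of retroelements, was at 19.06 FPKM in WT and 9.38 FPKM in VEMD6, a log2 ratio of -0.95. Zfp202 was at 1.69 FPKM in WT, 0.44 FPKM in VEMD6 and 0.77 FPKM in VEMD8, with log2 ratios of -0.90 and -0.60. Zfp57, the best known guardian of imprints, stayed between 0.03 and 0.57 FPKM, Zfp92 was between 0.18 and 1.14 FPKM, and Zfp819 was at most at 0.02 FPKM.

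Another 3 members, without a KRAB box, were high in VEMD2 to VEMD4 and within 0.5 FPKM of WT in VEMD6 and VEMD8. Zfp385a, an RNA-binding protein linked to p53, read 0.47 FPKM in WT, with 4.31, 15.62 and 8.67 FPKM in VEMD2 to VEMD4, 0.41 in VEMD6 and 0.16 in VEMD8. Zfp365, a p53 target in DNA repair, was listed at 0 in WT, reached 1.05, 3.52 and 2.71 FPKM in VEMD2 to VEMD4, and was at 0.01 FPKM in both VEMD6 and VEMD8. Zfp750, a regulator of epidermal differentiation, was listed at 0 in WT and VEMD8 and at 1.32, 5.11 and 2.95 FPKM in VEMD2 to VEMD4 and 0.04 FPKM in VEMD6. In all 3 the level was highest in VEMD3. All 3 lay under 1 FPKM in WT and passed the minimum through VEMD2 to VEMD4, so their higher values there are partly set by the minimum. Of the 6 genes on the list of p53 and DNA damage, Zfp385a and Zfp365 were the ones past 2-fold in VEMD2, VEMD3 and VEMD4. The shares of all genes higher there were 2.44%, 6.00% and 7.10%. In VEMD6 and VEMD8, 0 of the 6 passed 2-fold, beside 5.04% and 4.36% of all genes higher. Zfp346, Zfp668, Zfp830 and Zfp369 had log2 ratios between -0.30 and 0.76 in all 5 libraries. Zfp503, a developmental repressor without a KRAB box, had 2.08 FPKM in WT, 6.86 FPKM in VEMD3 and 0.99 FPKM in VEMD6. Zfp809 and Zfp958, which have the box, passed 2-fold in the same 3 libraries but not in VEMD6 or VEMD8, where Zfp958 was at 3.22 and 5.24 FPKM beside 3.91 FPKM in WT. The sum of 5 enteroendocrine markers was also highest in VEMD3, at 575 FPKM beside 286 FPKM in WT and 372 FPKM in VEMD2. In VEMD4 this sum was 243 FPKM, below WT, where Zfp385a, Zfp365 and Zfp750 were above WT. It was 67.2 FPKM in VEMD6 and 21.1 FPKM in VEMD8. The part of these cells in the values was not tested.

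**Figure D4:**
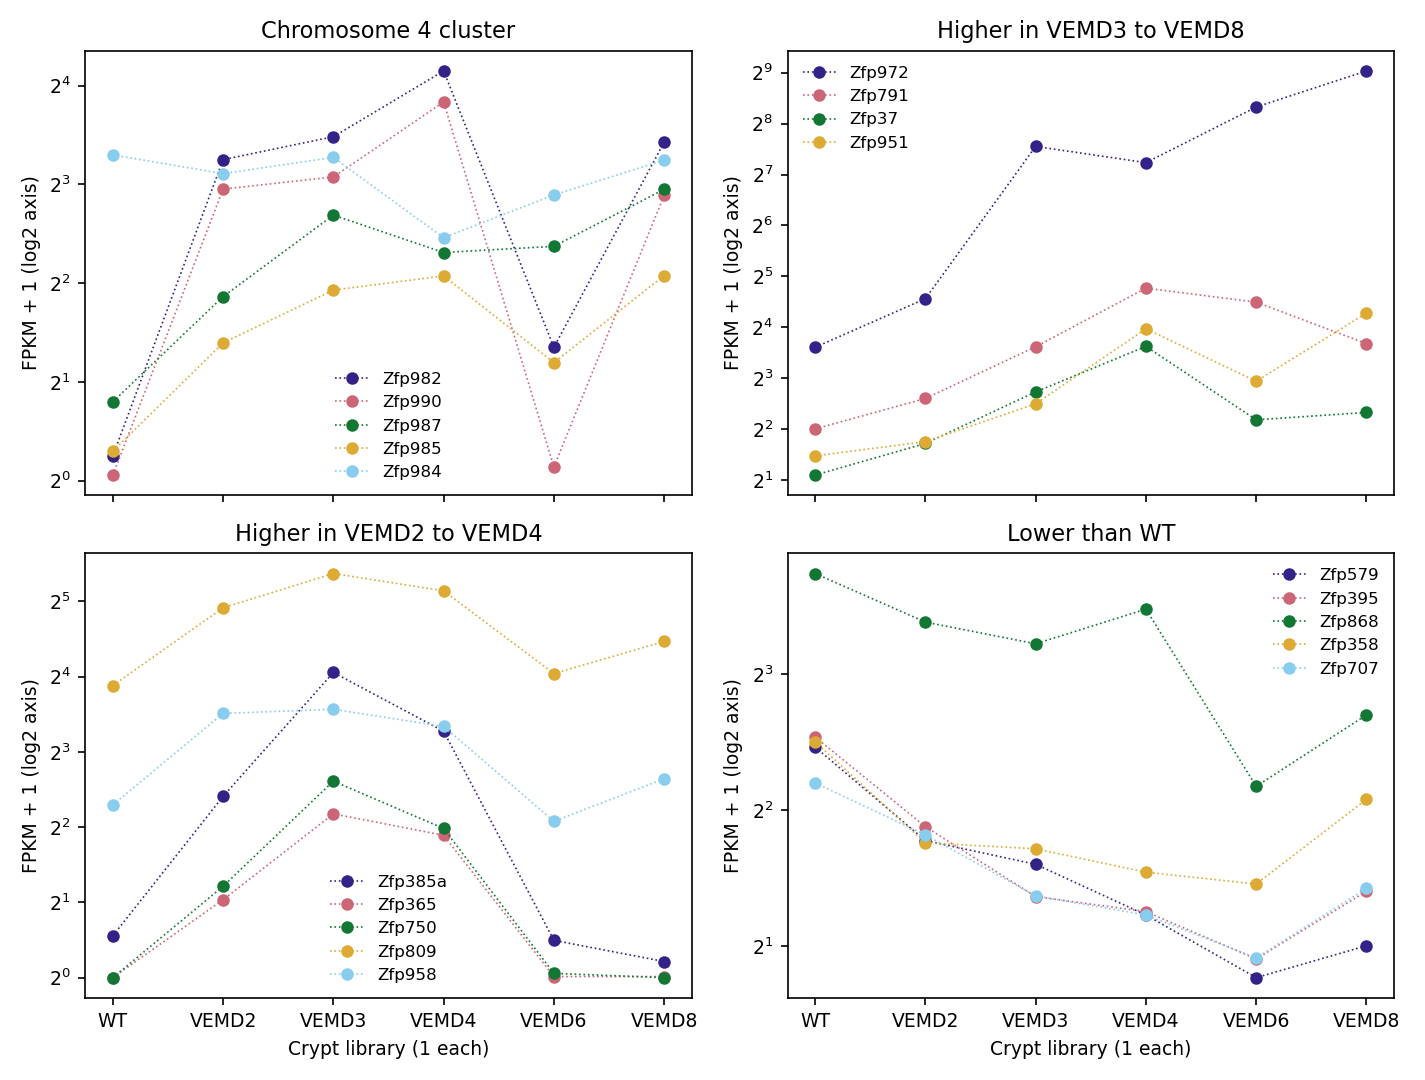
Level (FPKM + 1, log2 axis) of 19 Zfp genes in each crypt library, 1 point per library, with dotted lines that join the points of a gene and stand for no fit. In the upper panels WT is the lowest library for every gene but Zfp984, in the lower left panel Zfp385a, Zfp365 and Zfp750 peak in VEMD3 and lie at most at 0.41 FPKM in VEMD6 and VEMD8, and the genes of the last panel are highest in WT.

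With 1 FPKM added, 14 members were lower than WT in at least 1 library, most of them in VEMD6 alone. This balance rests on the pseudocount: with 0.1 FPKM, 42 members were lower in VEMD6, more than the 26 that were higher in VEMD3. The share of all genes with 0.1 FPKM was not computed, so these 2 counts cannot be read as particular to the members. The lower members were Zfp395 in VEMD3, VEMD4, VEMD6 and VEMD8, Zfp579 in VEMD4, VEMD6 and VEMD8, Zfp868 in VEMD6 and VEMD8, and 11 others in VEMD6 only. Zfp395 read 4.80 FPKM in WT, with 2.67, 1.57 and 1.38 FPKM in VEMD2 to VEMD4, 0.87 in VEMD6 and 1.64 in VEMD8. Zfp579 read 4.51 FPKM in WT, with 2.42, 2.03 and 1.34 FPKM in VEMD2 to VEMD4, 0.70 in VEMD6 and 1 in VEMD8. WT was the highest library for both and VEMD6 the lowest. Neither has a KRAB box. Zfp868, a KRAB gene, was at 12.35 FPKM in WT, 8.33 to 10.13 FPKM in VEMD2 to VEMD4, 3.51 FPKM in VEMD6 and 5.49 FPKM in VEMD8. Among the 11, Zfp707 was at 3.59 FPKM in WT and 0.88 FPKM in VEMD6, and Zfp965 at 1.96 FPKM in WT and listed at 0 in VEMD6, with 96.3% of its words shared. Of the 14 lower members, 9 had their highest value in WT.

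Zfp579 lies in a cluster of 5 members without a KRAB box on chromosome 7 (chr7:4915181-5038446), whose median ratios were -0.45, -0.51, -0.74, -0.46 and -0.44. Within it Zfp524 was at 14.11 FPKM in WT and 7.87 to 10.16 FPKM in the knockouts, and Zfp784 at 4.01 FPKM in WT and 2.01 to 2.69 FPKM. Zfp628 and Zfp865 had log2 ratios from -0.32 to 0.30. Reads may be shared here too, since 94.7% of the words of Zfp784 occur in Zfp865, and 46.7% of those of Zfp524 in other transcripts. In the largest clusters, of 16 members on chromosome 13 (chr13:67069398-67729178) 0 passed 2-fold in any library. Of 17 on chromosome 17 (chr17:21008941-22456689) 1 did, Zfp52. Over all genes, 12.2% were higher and 13.4% lower in at least 1 library, and the difference was not tested.

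None of 9 members with roles in RNA and ribosomes passed 2-fold in any library, beside 12.2% of all genes higher and 13.4% lower in at least 1. Zfp598, a ubiquitin ligase that acts on collided ribosomes, was at 22.88 FPKM in WT and 24.43 to 35.83 FPKM in the knockouts. Zfp207 was at 84.77 FPKM in WT and 60.92 to 94.11 FPKM in the knockouts. Of 21 genes listed for transcription and development 18 were members. Zfp750 and Zfp503 were the 2 past 2-fold, both higher, beside 12.2% of all genes higher in at least 1 library. Zfp703, a repressor in epithelia, was between 18.29 and 39.66 FPKM, and Zfp148, which binds GC-rich promoters, between 5.92 and 8.11 FPKM.

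The proteins that work with the fingers were set beside them. Of 22 such genes, 0, 2, 2, 0 and 0 were at least 2-fold higher, counted from VEMD2 to VEMD8, beside 2.44%, 6.00%, 7.10%, 5.04% and 4.36% of all genes, and 3 were lower, all in VEMD6, beside 8.15%. Trim28 read 59.15 FPKM in WT, with 70.88, 74.59 and 59.38 FPKM in VEMD2 to VEMD4, 28.60 in VEMD6 and 39.42 in VEMD8. Atf7ip, which stabilises SETDB1, had 9.06 FPKM in WT, and 18.69, 24.89, 21.08, 13.94 and 18.28 FPKM from VEMD2 to VEMD8, above WT in all 5. Trim28, Setdb1 and Cbx3 were the 3 lower in VEMD6, and Atf7ip in VEMD3 and VEMD4, Morc2a in VEMD3 and Daxx in VEMD4 the ones higher. The median ratios of the 22 genes were 0.39, 0.36, 0.11, -0.49 and -0.04, the same order over libraries as the medians of the Zfp genes except that VEMD2 was above VEMD3.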

How the data were processed

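RNA was sequenced from 6 crypt libraries and 2 stem cell libraries, each a group of 1; genes of the stem cell pair were not analysed here, and a deposited table of repeats was not used here. The tools named in the submitters' processing notes are HISAT2, featureCounts and edgeR, and the builds GRCm38 and mm10, with no word on the table each served. Crypt libraries were made by BGI-500 protocols per the labels. The crypt values are FPKM as deposited, which the authors scaled for length and total fragments, with 2 decimals and the unit per the file headers. They give no counts, so depth is unknown and no intervals could be computed.

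Symbols and positions were looked up by gene identifier in RefSeq on GRCm38. A pseudocount of 1 FPKM was added before log2 ratios, and a gene counted as higher or lower at 2-fold. Genes tested were the 10862 with a mean of at least 1 FPKM. Coding sequences of GENCODE M21 were translated to find KRAB boxes and C2H2 fingers; 4 members matched 6 or 7 of the 15 letters of the box and were counted without it, and 6 matched 8 to 10. Copies were found by 50-base words shared with transcripts of other genes. Promoters were aligned locally with Biopython 1.88. The script for the ratios was tested on simulated data. Python 3.11.15 and pandas 2.3.3 were used.

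The members and lists were chosen with earlier results of these data known. Named genes are the 8 highest by the smallest and 8 lowest by the largest of the 5 ratios, the 3 highest and 3 lowest ratios per library, the 5 highest means, all members of the role lists, the 3 just inside and 3 just outside the minimum, and the highest and lowest member of each cluster; not all are reported here. Zfp951, Zfp958, Zfp27, Zfp628, the other genes of the clusters on chromosomes 2 and 4, and the single genes of the machinery were chosen after their values were seen. Role lists covered silencing, p53 and DNA damage, RNA and ribosome, and transcription and development.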

Additional observations from a re-analysis of the deposited data

How the results depend on the processing

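No paired analysis was possible because every group is a single library. With a pseudocount of 0.1 FPKM, 14 members were higher in VEMD2, 21 in VEMD4, 10 in VEMD6, 17 in VEMD8 and 4 in all 5 libraries; 4 and 9 were lower in VEMD3 and VEMD4, 42 in VEMD6 and 15 in VEMD8; and the median ratio in VEMD6 was -0.43. With 5 FPKM, 2, 7 and 8 were higher in VEMD2 to VEMD4, 2 in VEMD6, 6 in VEMD8 and 0 in all 5; 0 were lower in VEMD3, VEMD4 and VEMD8 and 1 in VEMD6; and the median in VEMD6 was -0.16. The smaller pseudocount widens ratios of low genes by construction. Shares of all genes were not computed for either pseudocount, for a mean of 5 FPKM or after rescaling, so these counts describe the members alone. Among the 102 members that reach a mean of 5 FPKM, 4, 8 and 7 were higher in VEMD2 to VEMD4, 6 in VEMD8 and 1 in all 5, and 0 were lower in VEMD3 and VEMD4, 4 in VEMD6 and 1 in VEMD8, since fewer genes were tested. Rescaled to the median gene, the median ratio was 0.0746 in VEMD3 and -0.0831 in VEMD6, where 6 members were lower. Without VEMD2, 6 members were higher and 1 lower in all other knockouts, and without VEMD6, 4 were higher; leaving out 1 library in turn gave 2 to 6 higher and 0 to 1 lower. The next alternatives were added after seeing the data: with the 245 members under 50% of words shared, 1 was higher in all 5, and with the 225 members of 1 to 10 FPKM the median in VEMD8 was -0.00829, beside 0.0105. Without a minimum, over 375 genes, all 17 values stayed within 1.5 times or 0.1 of the log2 scale, and the median in VEMD8 was 0, beside 0.0105. Depth cannot be read from FPKM, so values of under 1 FPKM have unknown precision.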
